A study of Mus musculus with 28 samples.

Results

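The cholinergic neuron genes and nicotinic acetylcholine receptor subunits examined here were 10 of the 23038 genes counted in each of 28 RNA-seq libraries of mouse brain. They were chosen by gene symbol: Chat, Slc18a3, Slc5a7 and Ache, 4 genes of acetylcholine synthesis, storage, choline uptake and breakdown, and 6 receptor subunits, Chrna3, Chrna4, Chrna5, Chrna6, Chrnb2 and Chrnb3. All 10 passed the filter on low counts in every comparison. The study replaced an isoleucine of the neuronal RNA-binding protein NOVA1 with the valine of modern humans by CRISPR/Cas9 editing of the mouse gene, giving Nova1 hu/hu mice that were compared with Nova1 wt/wt controls on the C57BL/6J background. Each genotype gave 6 libraries of embryonic (E18.5) midbrain, 4 of midbrain at postnatal day 21 (P21) and 4 of cortex at P21. The knock-in was made in zygotes and is carried in the germ line, and silent base changes for genotyping came with the isoleucine-to-valine substitution in the second RNA-binding domain.

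Acetylcholine is made from choline and acetyl-CoA by the enzyme that Chat encodes, loaded into synaptic vesicles by the transporter that Slc18a3 encodes, and split in the synaptic cleft by the esterase that Ache encodes, after which the choline transporter encoded by Slc5a7 returns choline to the terminal. Nicotinic receptors are pentameric cation channels, and the combination of subunits sets their affinity, calcium permeability and desensitisation. In midbrain the cholinergic neurons lie in the oculomotor and trochlear motor nuclei and the tegmental nuclei, and receptors with the subunits of Chrna4, Chrna6, Chrnb2 and Chrnb3 are known from dopamine neurons, while those with the subunits of Chrna3, Chrna5 and Chrnb4 are known from the habenula and its target, the interpeduncular nucleus.

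Levels are given as TPM, a measure scaled by transcript length and to the same total in each library, computed from the deposited counts and exon lengths, which allows genes of unequal length to be compared within a library. Libraries held 18550922 to 45134998 counts, and the 10 genes had from 8 counts (Chrna6 in a cortex library) to 8161 counts (Ache in a P21 midbrain library). Nova1 itself lay at 98.4 to 126 TPM in E18.5 midbrain, 45.7 to 52.7 TPM in P21 midbrain and 23.0 to 25.5 TPM in P21 cortex, with overlapping genotypes at each, and a gene count cannot show the edited bases. All 8 midbrain markers were higher in P21 midbrain than in cortex and all 8 cortex markers lower. The midbrain libraries also held 8 hindbrain Hox genes, at a summed 6.73 to 27.4 TPM at E18.5 and 5.63 to 35.4 TPM at P21, against at most 0.143 TPM in cortex, and 6 striatum markers summed to 708 to 869 TPM in the cortex libraries against 81.2 to 95.5 TPM in P21 midbrain. These are bulk tissues, in which fewer cells of a type and less RNA per cell cannot be told apart.

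Several of the 10 genes are neighbours in the genome (GRCm38.p6, RefSeq). Chat spans chr14:32408203-32465909 on the minus strand and holds the whole of Slc18a3, chr14:32462437-32464850, a single exon on the same strand, an arrangement known as the cholinergic gene locus. Their exons in the GENCODE annotation do not overlap (0 shared nucleotides). Slc5a7 lies elsewhere, at chr17:54273590-54299038. The whole spans of Chrna3 (chr9:55010117-55026562, minus strand) and Chrna5 (chr9:54980827-55011420, plus strand) overlap by 1304 nucleotides, and Chrnb4 begins 1591 nucleotides beyond Chrna3. That value is for gene spans and not for exons. Chrna6 (chr8:27403212-27413944) and Chrnb3 (chr8:27368711-27399730) are 3481 nucleotides apart on opposite strands. Ache lies at chr5:137288247-137294466, Chrna4 at chr2:181022311-181043579 and Chrnb2 at chr3:89753448-89764632. In the same annotation, exons of Chrnb2 share 16.3% of their nucleotides with Adar on the other strand, and exons of Ache 2.12% with Gm42456. Reads from overlapping exons could not be told apart here, as the counting is not stated to use strand.

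The 250 bases before the RefSeq start of Chat, Slc18a3 and Slc5a7 are shown because these 3 genes make up the presynaptic cholinergic set and Chat and Slc18a3 share a locus but not their proportions (see the TPM ratios). They lie on the minus strand at chr14:32465910-32466159, chr14:32464851-32465100 and chr17:54299035-54299284, and are written 5′ to 3′ with 2 motifs in capitals, the GC box GGGCGG and the cAMP response element core TGACGT, searched on both strands.
Chat: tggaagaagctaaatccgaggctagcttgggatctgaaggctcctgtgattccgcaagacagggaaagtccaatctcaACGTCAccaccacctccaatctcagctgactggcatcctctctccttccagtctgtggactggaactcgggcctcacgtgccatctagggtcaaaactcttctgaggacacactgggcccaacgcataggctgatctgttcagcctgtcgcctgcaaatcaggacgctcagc
Slc18a3: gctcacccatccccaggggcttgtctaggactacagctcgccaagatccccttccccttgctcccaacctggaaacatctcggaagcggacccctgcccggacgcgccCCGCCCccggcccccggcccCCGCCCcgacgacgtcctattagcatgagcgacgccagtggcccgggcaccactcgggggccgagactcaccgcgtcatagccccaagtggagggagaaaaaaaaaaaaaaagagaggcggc
Slc5a7: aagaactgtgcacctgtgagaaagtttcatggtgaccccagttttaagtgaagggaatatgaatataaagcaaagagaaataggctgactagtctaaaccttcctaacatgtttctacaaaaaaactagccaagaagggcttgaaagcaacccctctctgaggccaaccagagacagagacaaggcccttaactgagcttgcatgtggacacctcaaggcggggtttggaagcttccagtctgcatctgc
The stretch before Chat held 0 GC boxes and 1 cAMP response element core, the stretch before Slc18a3 held 2 GC boxes and 0 such cores, and the stretch before Slc5a7 held neither. Of 32851 such stretches in the RefSeq table, 32.7% held GGGCGG and 6.47% held TGACGT. The GC content was 54.8% before Chat, 66.0% before Slc18a3 and 45.6% before Slc5a7, against a median of 52.4% over all. Entries were found for 8 of the 10 genes. The homeodomain core TAATTA, held by 4.84% of all stretches, was in none of the 9 stretches of these 8 genes.

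**Figure D1:**
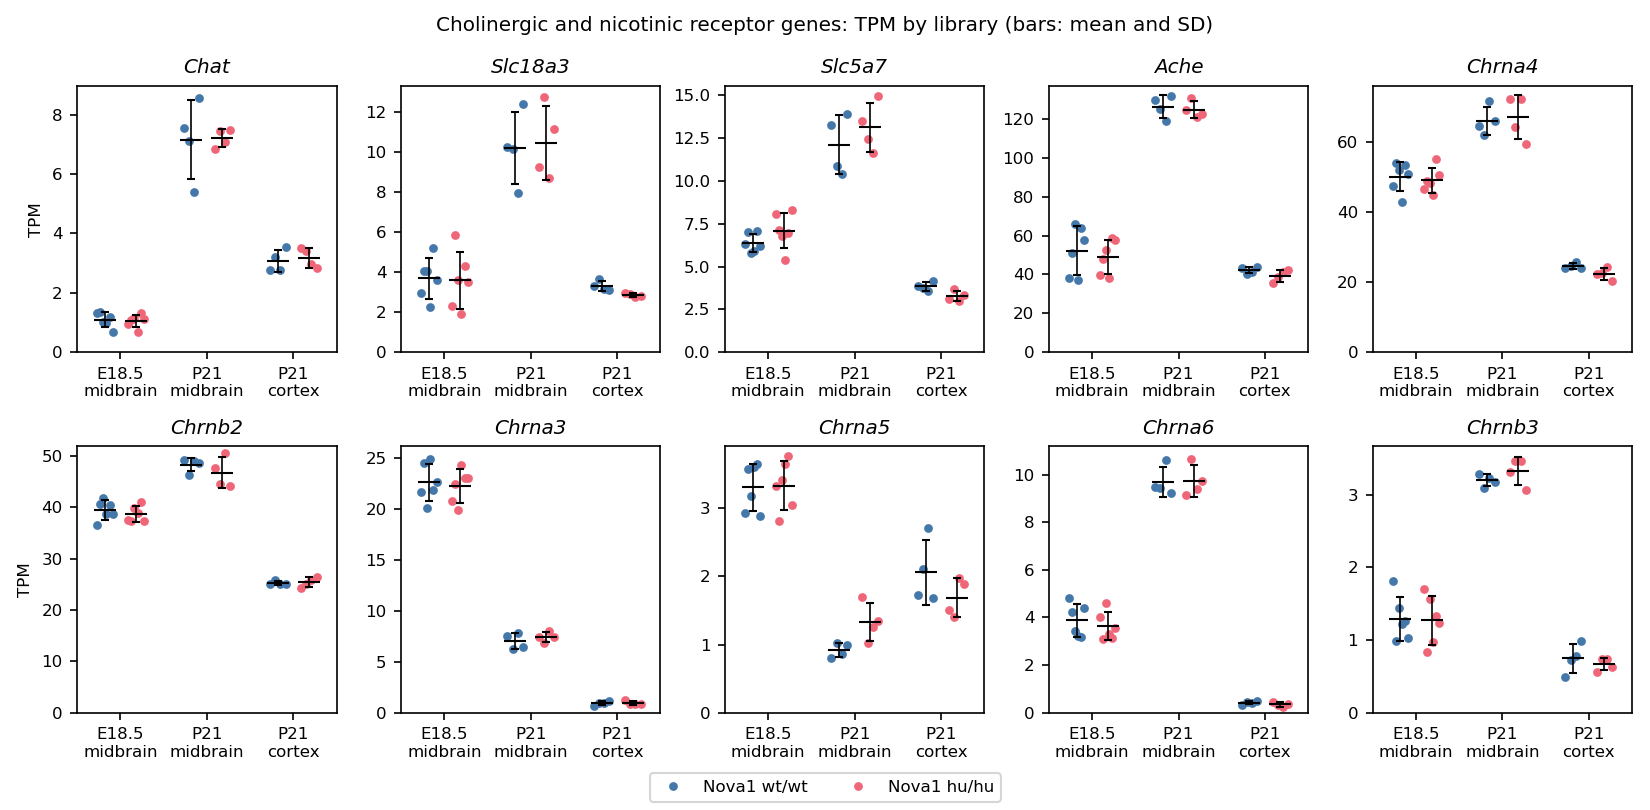
TPM of the 10 genes (1 panel each, linear axis from 0) in each library, by age and region, with Nova1 wt/wt in blue, Nova1 hu/hu in red and bars for the mean and SD. The 8 P21 midbrain libraries lie apart from the 12 E18.5 midbrain libraries in every panel, while the genotypes overlap except for Slc18a3 in cortex.

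The age comparison asks how the cholinergic genes change between late gestation and weaning. In midbrain 8 of the 10 genes rose from E18.5 to P21 and 2, Chrna3 and Chrna5, fell, all with TPM ranges that did not overlap between the ages. Chat rose most, 7.76-fold, and Chrnb2 least, 1.41-fold, while Chrna3 fell 2.69-fold and Chrna5 2.57-fold. Genes were tested with the quasi-likelihood method of edgeR, p-values were adjusted by Benjamini-Hochberg, and a call needed p under 0.05 and adjusted p under 0.1. Same-numbered libraries of both genotypes deviated together. The tests by age and region treat them as independent, so their SEs and p-values may be too small. Of all 16805 genes tested, 84.9% were called with age, 42.6% higher and 42.4% lower at P21, so that a call as such sets no gene apart. A change of at least 2-fold was less common, with 16.3% of genes higher and 14.5% lower, against 6 and 2 of the 10 genes. Ranges were apart for 61.5% of the 15671 genes with a median count of at least 10. The median log2 fold change was 1.32 over the 10 genes and -0.00 over all genes.

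Chat, the enzyme of synthesis, had the lowest median of the 10 genes at E18.5, 1.1 TPM, with a range of 0.674 to 1.36 TPM over 12 libraries. Its range overlapped that of Chrnb3, which exceeded Chat in 10 of 12 libraries. At P21 Chat lay between 5.38 and 8.57 TPM, with a median of 7.28 TPM over 8 libraries. The rise was 2.96 on the log2 scale (SE 0.10, adjusted p = 6.84e-23). Slc18a3, the vesicular transporter, varied more at E18.5 than any other of the 10 genes relative to its mean, from 1.90 to 5.87 TPM with a median of 3.61 TPM. It lay between 7.98 and 12.8 TPM at P21, and its rise was 1.72 (SE 0.13, adjusted p = 1.12e-13). Slc5a7, the choline transporter, had the highest median of the 3 presynaptic genes at both ages, 6.86 and 12.8 TPM, with ranges that overlapped those of Slc18a3, and rose by 1.12 (SE 0.07, adjusted p = 6.67e-16).

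The 3 presynaptic genes therefore did not keep their proportions. The TPM ratio of Slc18a3 to Chat ran from 2.27 to 5.46 in E18.5 midbrain (median 3.13), from 1.23 to 1.71 in P21 midbrain (median 1.44) and from 0.846 to 1.20 in P21 cortex (median 0.966). Slc18a3 exceeded Chat in 12 of 12, 8 of 8 and 3 of 8 libraries. The ratio of Slc5a7 to Chat had medians of 5.99, 1.71 and 1.17 in the same order. These ratios are descriptions, and each rests on only 20 to 58 Chat counts per library at E18.5.

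**Figure D2:**
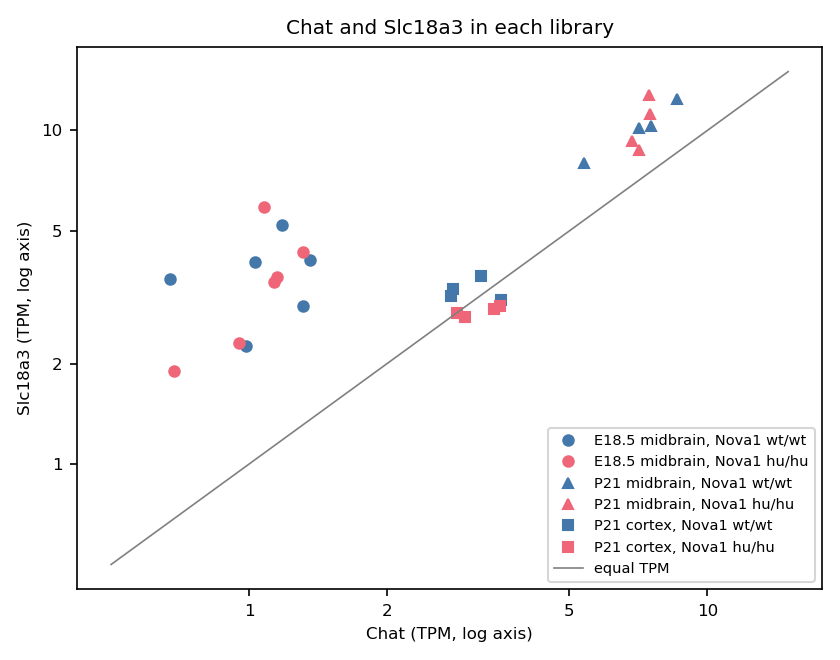
Slc18a3 against Chat in TPM (log axes) in each of the 28 libraries, with circles for E18.5 midbrain, triangles for P21 midbrain, squares for P21 cortex, blue for Nova1 wt/wt and red for Nova1 hu/hu, and a line at equal TPM. The 12 E18.5 libraries lie well above the line, the 8 P21 midbrain libraries just above it and the cortex libraries around it, at a median ratio of 0.966.

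Ache, the esterase, was the highest of the 10 genes at P21 and equal to Chrna4 within the spread at E18.5, where it exceeded Chrna4 in 6 of 12 libraries. It ran from 37.3 to 65.7 TPM at E18.5 (median 51.9) and from 119 to 132 TPM at P21 (median 125), a rise of 1.52 (SE 0.08, adjusted p = 5.14e-18). At E18.5 its 4 lowest libraries were those numbered 1 and 4 of each genotype, at 39.5 and 38.0 TPM in Nova1 hu/hu and 37.9 and 37.3 TPM in Nova1 wt/wt. The remaining 8 libraries lay between 47.7 and 65.7 TPM.

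Among the 6 receptor subunits chosen here, Chrna4 and Chrnb2, which form the main high-affinity receptor of brain, were the most abundant and the least changed with age. Chrna4 had medians of 49.8 and 65.3 TPM at E18.5 and P21 and Chrnb2 of 38.8 and 48.2 TPM. Their rises were 0.64 (SE 0.04, adjusted p = 1.25e-14) and 0.50 (SE 0.03, adjusted p = 1.94e-16), both below 2-fold. Without the scaling factors of the trimmed mean of M values (TMM), the median of all genes by age was -0.17, the share of calls that were higher at P21 was 41.6% in place of 50.1%, and the 10 genes kept their directions (8 higher and 2 lower).

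Chrna6 and Chrnb3, subunits known from dopamine neurons, rose alike. Chrna6 went from 3.11 to 4.83 TPM at E18.5 (median 3.51) to 9.16 to 10.7 TPM at P21 (median 9.47), a rise of 1.59 (SE 0.08, adjusted p = 1.06e-17). Chrnb3 went from 0.829 to 1.80 TPM (median 1.24) to 3.06 to 3.46 TPM (median 3.26), a rise of 1.57 (SE 0.11, adjusted p = 3.40e-14). The ratio of Chrna6 to Chrnb3 had a median of 2.79 at E18.5 and 2.98 at P21, with overlapping ranges. Of the 10 dopamine neuron markers 5 rose and 5 fell with age. The largest rises were those of Aldh1a1 (3.27), Slc6a3, the dopamine transporter (2.01), and Th, the rate-limiting enzyme of dopamine synthesis (1.94), and the largest falls those of the transcription factors Foxa2 (-1.44), Lmx1b (-1.27) and En1 (-1.15), all log2 fold changes.

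Chrna3 and Chrna5, neighbours with Chrnb4 in 1 cluster, fell. Chrna3 ran from 19.9 to 25.0 TPM at E18.5 (median 22.6), the highest level after Ache, Chrna4 and Chrnb2, and from 6.21 to 8.0 TPM at P21 (median 7.44), a fall by 1.43 (SE 0.07, adjusted p = 1.85e-18). Chrna5, an accessory subunit, ran from 2.82 to 3.76 TPM (median 3.37) and then from 0.808 to 1.69 TPM (median 1.02), a fall by 1.36 (SE 0.12, adjusted p = 3.17e-12). Chrnb4, at 3.10 ± 0.868 TPM (SD, n = 12) at E18.5 and 2.41 ± 0.275 TPM (SD, n = 8) at P21, was not called (log2 fold change -0.15, SE 0.14). The ratio of Chrna3 to Chrna5 kept a median of 6.77 at E18.5 and 6.44 at P21, whereas that of Chrna3 to Chrnb4 had medians of 7.56 and 2.82 with ranges that did not overlap. Of the 6 habenula and interpeduncular markers 4 rose and 2 fell, Nwd2 (-1.17) and Pou4f1 (-1.11).

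The region comparison asks how midbrain and cortex differ at P21. Of the 10 genes, 9 were higher in midbrain and 1, Chrna5, was higher in cortex. Chrna6 differed most, 24.5-fold, followed by Chrna3 (7.28-fold) and Chrnb3 (4.36-fold). Of all 16805 genes 71.3% were called, 35.9% higher and 35.4% lower in midbrain, and a call with at least a 2-fold difference was made for 8.16% higher and 7.57% lower, against 8 and 0 of the 10 genes. Ranges were apart for 9 of the 10 genes and for 48.1% of the 15872 genes with a median count of at least 10. The median log2 fold change was 1.61 over the 10 genes and 0.00 over all.

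Chrna6 was at the limit of detection in cortex, with 8 to 15 counts per library (0.232 to 0.471 TPM, median 0.393), against 228 to 457 counts in P21 midbrain. The log2 difference was 4.61 (SE 0.12, adjusted p = 5.86e-25). Chrnb3 lay between 0.497 and 0.989 TPM in cortex (median 0.730), a difference of 2.12 (SE 0.13, adjusted p = 1.55e-15). In cortex Chrnb3 exceeded Chrna6 in every library, while in midbrain Chrna6 exceeded Chrnb3 in every library. All dopamine neuron markers but Nr4a2 were higher in midbrain (9 of 10), Foxa2 (7.20), En1 (7.20) and Slc6a3 (6.96) by most on the log2 scale.

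Chrna3 lay between 0.690 and 1.26 TPM in cortex (median 0.907), 2.86 below midbrain on the log2 scale (SE 0.10, adjusted p = 1.49e-22). Chrnb4 showed the same direction (3.61, SE 0.21) with 0.187 ± 0.0736 TPM (SD, n = 8) in cortex. Chrna5 went the other way, at 1.40 to 2.71 TPM in cortex (median 1.81) against 0.808 to 1.69 TPM in midbrain, a log2 difference of -0.83 (SE 0.13, adjusted p = 1.12e-06). It was the only 1 of the 10 genes whose ranges overlapped between the regions. In Nova1 wt/wt libraries alone the difference was -1.23 (SE 0.22, adjusted p = 0.000124 in edgeR). In Nova1 hu/hu libraries alone it was -0.43 (SE 0.20, adjusted p = 0.0736 in edgeR) and was not called, since its unadjusted p lay just above 0.05. Chrna5 was therefore expressed above Chrna3 in all 8 cortex libraries and below it in all 20 midbrain libraries.

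The presynaptic genes were present in cortex, at 2.75 to 3.55 TPM for Chat (median 3.08), 2.76 to 3.66 TPM for Slc18a3 (median 3.04) and 3.01 to 4.17 TPM for Slc5a7 (median 3.65). The ranges of the 3 genes overlapped in cortex. Within libraries, Slc5a7 exceeded Chat in 7 of 8 and Slc18a3 exceeded Chat in 3 of 8. Midbrain exceeded cortex by 1.12 for Chat (SE 0.10, adjusted p = 7.13e-12), by 1.67 for Slc18a3 (SE 0.14, adjusted p = 5.93e-12) and by 1.75 for Slc5a7 (SE 0.08, adjusted p = 5.57e-19). Beside these levels, Lhx8, a transcription factor of forebrain cholinergic neurons, was at 5.08 ± 0.698 TPM (SD, n = 8) in cortex and 0.735 ± 0.811 TPM in P21 midbrain. Striatum markers moved with the cortex libraries (all 6 tested were higher there), and their part in the cholinergic levels of cortex was not tested.

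Ache lay between 35.5 and 44.0 TPM in cortex (median 41.2), below midbrain by a log2 difference of 1.55 (SE 0.09, adjusted p = 2.38e-16). Chrna4 lay between 20.3 and 25.9 TPM (median 24.0) and Chrnb2 between 24.3 and 26.5 TPM (median 25.1). Their differences were 1.42 (SE 0.05, adjusted p = 6.76e-22) and 0.83 (SE 0.03, adjusted p = 1.12e-20). The ratio of Chrna4 to Chrnb2 was above 1 in 12 of 12 E18.5 midbrain and 8 of 8 P21 midbrain libraries and in 1 of 8 cortex libraries, with medians of 1.31, 1.39 and 0.948.

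**Figure D3:**
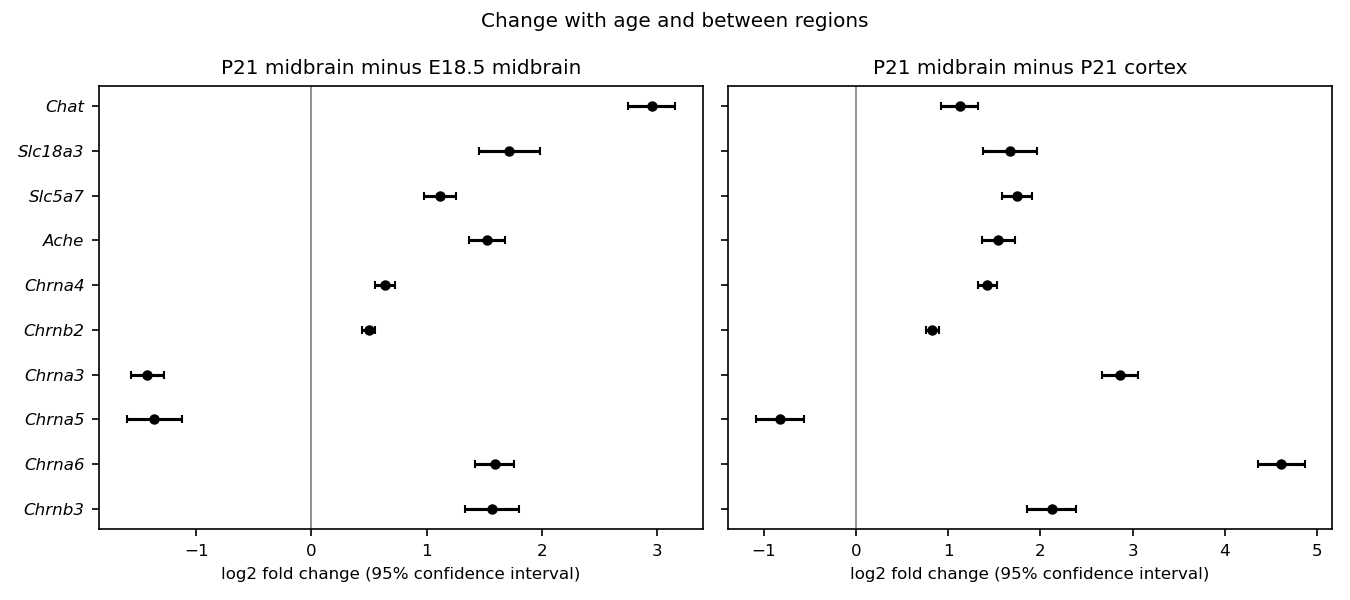
log2 fold changes of the 10 genes with 95% confidence intervals from edgeR, for P21 minus E18.5 midbrain on the left and P21 midbrain minus P21 cortex on the right. Chrna3 and Chrna5 alone lie below 0 with age, and Chrna5 alone lies below 0 between regions.

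Within the summed TPM of 16 nicotinic subunit genes, the mix differed between ages and regions. The sum was 145 ± 6.66 TPM (SD, n = 12) in E18.5 midbrain, 162 ± 8.54 TPM (SD, n = 8) in P21 midbrain and 74.9 ± 2.77 TPM (SD, n = 8) in P21 cortex. Chrna4 and Chrnb2 together made up most of it everywhere, with mean shares at E18.5 of 34.3% and 27.0%, at P21 of 41.0% and 29.3% in midbrain and of 31.5% and 33.9% in cortex. The share of Chrna3 was 15.6%, 4.46% and 1.26%, that of Chrna6 2.60%, 6.01% and 0.504%, and that of Chrna5 2.29%, 0.695% and 2.49% in the same order. Chrna7, the subunit of the homomeric receptor, had 12.5%, 11.8% and 23.1% at similar levels of 18.1, 19.2 and 17.3 TPM. It was not called between regions (0.07, SE 0.08). These shares describe mRNA and not assembled receptors.

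**Figure D4:**
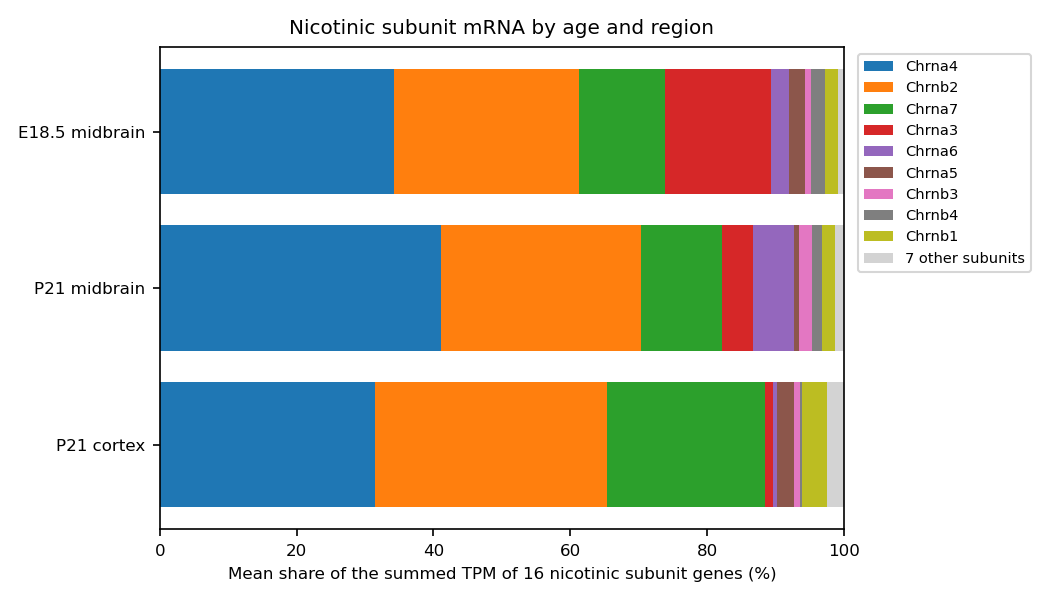
Mean share of each nicotinic subunit gene in the summed TPM of 16 subunit genes (horizontal axis, percent) in E18.5 midbrain (12 libraries), P21 midbrain (8) and P21 cortex (8). Chrna3 takes 15.6% at E18.5 and 4.46% at P21 in midbrain, and Chrna7 takes 23.1% in cortex.

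Other genes of the pathway were read from lists that were chosen with earlier results of these data known. Of the 10 other nicotinic subunit genes 6 were tested, and with age 3 rose (Chrna2 by 1.92, Chrnb1 by 0.41, Chrna7 by 0.30), 0 fell and 3 were not called. Between regions 2 were higher in midbrain (Chrnb4 and Chrna2), 2 were higher in cortex (Chrna10 and Chrna1) and 2 were not called. All 5 muscarinic receptor genes rose with age, Chrm1 (1.81), Chrm4 (1.79) and Chrm2 (1.06) most, and between regions Chrm2 (2.08) and Chrm5 (1.75) were higher in midbrain and Chrm1 (-4.93), Chrm4 (-3.81) and Chrm3 (-0.86) were higher in cortex. The muscarinic list thus differed between regions in both directions, whereas 9 of the 10 genes described above were higher in midbrain.

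All 8 genes of acetylcholine handling rose with age. The largest rises were those of Slc44a1, a choline transporter (3.91), Prima1, the membrane anchor of acetylcholinesterase (3.90), and Colq, its collagen tail (3.40). Of the same 8, 7 were higher in midbrain than in cortex, led by Slc10a4 (1.67), and Chka was lower (-0.26). The 7 oligodendrocyte markers also rose with age, to a summed 21560 to 24203 TPM at P21, and their part in these rises was not tested. Of the 9 genes of receptor assembly and modulation 5 rose, among them Lynx1, a membrane-bound modulator of nicotinic receptors (4.22), Ly6e (1.17) and the chaperone Ric3 (0.71), 3 fell, among them Ly6h (-0.94) and Tmem35a (-0.64), and 1 was not called. Between regions 3 of these 9 were higher in midbrain and 6 in cortex, Lypd1 (-1.13) by most.

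Of the 11 transcription factors of cholinergic neurons that could be tested, 1 rose (Phox2a, 0.64), 5 fell and 5 were not called with age, so that Chat, Slc18a3 and Slc5a7 rose while most of these factors did not. The largest falls were those of Zic4 (-2.83), Isl1 (-1.87) and Nkx2-1 (-1.86). Between regions 8 were higher in midbrain, among them Lhx4 (6.91) and Gbx2 (4.42), and 2 were lower, Lhx8 (-2.87) and Gbx1 (-1.37). Of the 8 cranial motor nucleus markers 5 rose with age, led by Nefh (4.21), Calcb (2.15) and Calca (1.85). Another 2 fell, among them Isl1, and 1 was not called. Between regions 7 were higher in midbrain and 1 was not called. Of the hindbrain Hox genes 4 rose and 1 fell with age.

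The genotype comparison asks whether the human form of NOVA1 changed the level of these genes. None of the 10 genes was called in any tissue (0 of 10 in each), and neither was any other gene by edgeR's quasi-likelihood test (0.0% of 15540 genes in E18.5 midbrain, of 15972 in P21 midbrain and of 15767 in P21 cortex). At an unadjusted p under 0.05 there were 201, 426 and 450 genes (1.29%, 2.67% and 2.85%), of which 0, 1 and 1 were among the 10. DESeq2 called 0, 1 and 0 genes, none of the 10, and gave 216, 381 and 384 genes an unadjusted p under 0.05, again none of the 10. The study, with edgeR at the same thresholds, reported a gene outside the 10 as lower in P21 midbrain of Nova1 hu/hu. The log2 differences of the 10 genes ran from -0.10 to 0.15 in E18.5 midbrain, from -0.04 to 0.52 in P21 midbrain and from -0.28 to 0.06 in P21 cortex.

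The precision differed between genes. For Chrnb2 the 95% interval of the difference ran from -0.12 to 0.06 at E18.5, from -0.14 to 0.06 in P21 midbrain and from -0.08 to 0.10 in cortex. For Chat it ran from -0.46 to 0.36, from -0.23 to 0.26 and from -0.20 to 0.32, and for Slc18a3 from -0.54 to 0.44, from -0.25 to 0.34 and from -0.49 to 0.08. For Chrna6 in cortex, with 8 to 15 counts, it ran from -0.98 to 0.47. For Ache, with 992 to 2704 counts at E18.5, it ran from -0.38 to 0.19 at that age, wider than the -0.25 to 0.26 of Chrna5 at 55 to 101 counts. A p above the threshold therefore does not show equal levels, and differences within these intervals were not detected.

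Chrna5 had the largest genotype difference of the 10 genes in P21 midbrain. The 4 Nova1 hu/hu libraries had 1.69, 1.02, 1.26 and 1.34 TPM and the 4 Nova1 wt/wt libraries 0.808, 1.03, 0.855 and 0.996 TPM. A single Nova1 hu/hu library, number 2, lay within the Nova1 wt/wt range, and the other 3 lay above it. The log2 difference was 0.52 (SE 0.23, adjusted p = 1.0 in edgeR, unadjusted p under 0.05), and the exact permutation test gave p = 0.0571 (adjusted p = 0.571 over 30 tests). With each library left out in turn it ran from 0.38 (without Nova1 hu/hu library 1) to 0.63 (without Nova1 hu/hu library 2), and in a fit blocked on replicate number it was 0.50 (95% interval -0.02 to 1.02, adjusted p = 0.999 in edgeR), with an unadjusted p above 0.05.

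In cortex Chrna5 lay the other way, at 1.5, 1.40, 1.97 and 1.89 TPM in Nova1 hu/hu and 1.73, 2.12, 2.71 and 1.68 TPM in Nova1 wt/wt, with overlapping ranges and a log2 difference of -0.28 (SE 0.20, adjusted p = 1.0 in edgeR). The test of the difference between the regions gave 0.80 (SE 0.26, adjusted p = 1.0 in edgeR), so that it was not called, and 1.65% of all genes had an unadjusted p under 0.05 in that test. At E18.5 the difference was 0.01 (SE 0.12), and the change of the genotype difference with age was 0.51 (SE 0.23, adjusted p = 1.0 in edgeR). Chrna5 was among the genes with an unadjusted p under 0.05 in both tests. In the test by age 2.24% of all genes had an unadjusted p under 0.05 and none was called.

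Slc18a3 was the only gene of the 10 with genotypes that did not overlap, and this was so in cortex alone. In cortex the Nova1 hu/hu libraries had 2.98, 2.91, 2.76 and 2.84 TPM and the Nova1 wt/wt libraries 3.34, 3.66, 3.18 and 3.10 TPM. The exact permutation test gave p = 0.0286, the smallest that 4 against 4 libraries allow, and adjusted p = 0.571 over 30 tests, while edgeR gave -0.20 (SE 0.13, adjusted p = 1.0) on 72 to 92 counts per library. Among genes with a median count of at least 10, ranges were apart for 2.03% of 15737 in cortex. The shares were 1.93% of 15903 in P21 midbrain and 0.0515% of 15538 at E18.5. Slc5a7 in cortex was lower in Nova1 hu/hu in 4 of 4 same-numbered pairs, as were Slc18a3 and Chrna4. The share of all genes with 4 of 4 pairs in 1 direction was not counted. Slc5a7 lay at 3.11, 3.70, 3.01 and 3.35 TPM against 3.89, 3.74, 3.60 and 4.17 TPM, with a log2 difference of -0.22 (SE 0.10, adjusted p = 1.0 in edgeR, unadjusted p under 0.05). In P21 midbrain Slc5a7 was higher in Nova1 hu/hu in 4 of 4 pairs (0.12, SE 0.09, adjusted p = 1.0 in edgeR), and the test of the difference between the regions gave 0.34 (SE 0.16, adjusted p = 1.0 in edgeR, unadjusted p under 0.05).

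The replicate number was shared by libraries that deviated together, so the genotypes were also compared within pairs, with the replicate number as a block. Again 0 of the 10 genes were called in each tissue, with 0, 4 and 0 genes called of all (0.0%, 0.025% and 0.0%). The 4 in P21 midbrain were 0.00626% of genes higher and 0.0188% lower in Nova1 hu/hu, and those lower were also at least 2-fold lower (0.0188%). The standard error of Ache at E18.5 went from 0.13 to 0.05 with the block, and its difference was -0.09 (adjusted p = 0.937 in edgeR). In cortex 3 of the 10 genes had an unadjusted p under 0.05 with the block, Chrna4 (-0.13, adjusted p = 0.802 in edgeR), Slc5a7 (-0.22, adjusted p = 0.865) and Ache (-0.10, adjusted p = 0.867), beside 5.69% of all genes. In E18.5 and P21 midbrain 0 of the 10 had such a p, beside 5.23% and 4.6% of all genes. Of the 6 cerebellar granule cell markers tested in P21 midbrain, 4 were lower in Nova1 hu/hu at an unadjusted p under 0.05, Gabra6 (-1.57), Cbln3 (-1.34), Neurod1 (-0.71) and Fat2 (-0.60), each with adjusted p = 1.0 in edgeR. With the block, Gabra6 (-1.61, SE 0.24, adjusted p = 0.0388 in edgeR) and Cbln3 (-1.21, SE 0.19, adjusted p = 0.0388 in edgeR) were called lower, as was Mybpc3 (-1.78), and Cdr1 was called higher (0.22), the last 2 named after their values were seen. The lists, that of granule cell markers included, were chosen with earlier results of these data known. The part of granule cell RNA in the P21 midbrain values of the 10 genes was not tested.

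**Figure D5:**
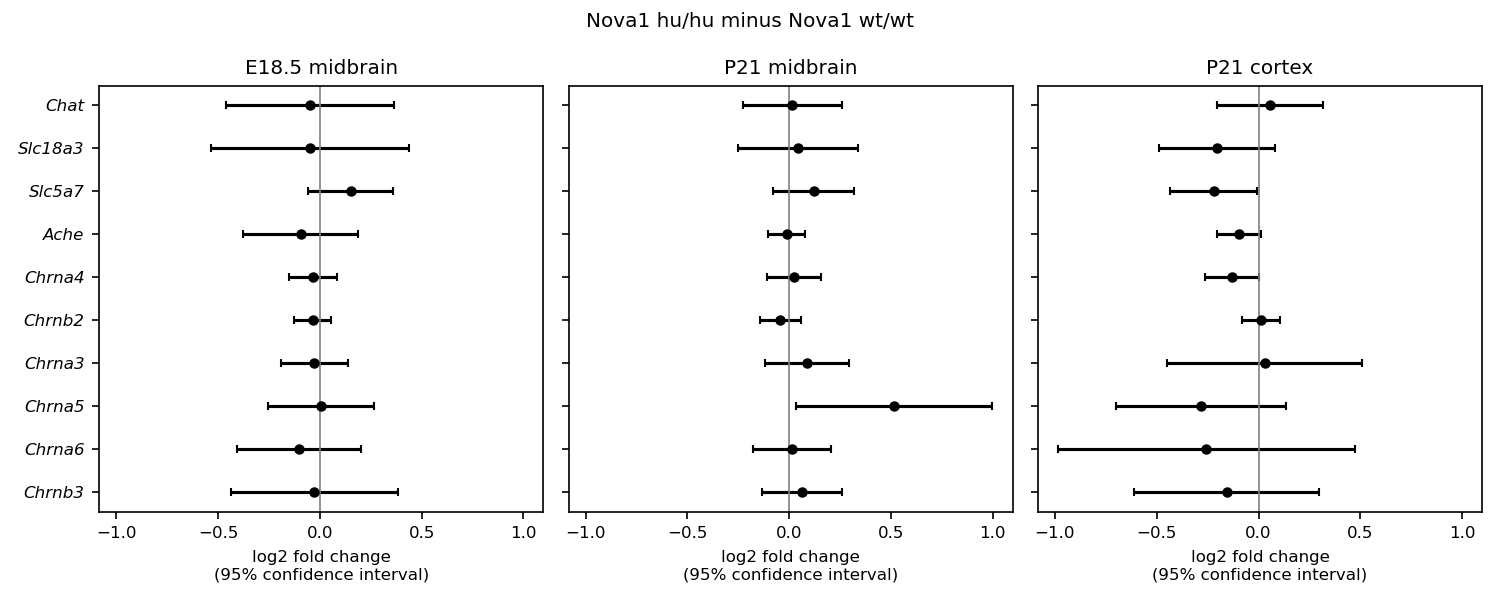
log2 fold changes of the 10 genes, Nova1 hu/hu minus Nova1 wt/wt, with 95% confidence intervals from edgeR in E18.5 midbrain (6 and 6 libraries), P21 midbrain (4 and 4) and P21 cortex (4 and 4). All intervals hold 0 except those of Chrna5 in P21 midbrain (0.52) and Slc5a7 in cortex (-0.22), neither of which passed the adjustment.

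Whether the genes vary together between animals or dissections was asked for 13 pairs in each tissue, 37 tests in all, on deviations from the genotype mean of log2(TPM + 0.1). At an unadjusted permutation p under 0.05 there were 7, of which 6 of 13 lay in P21 midbrain, and 0 passed at adjusted p under 0.05. In P21 midbrain (8 libraries) Pearson's r of Chat with Slc18a3 was 0.81 (exact permutation p = 0.0122, adjusted p = 0.220), and Spearman's rho was 0.81 (exact permutation p = 0.0260, adjusted p = 0.437). Without the 2 libraries farthest from the median of Chat r was 0.67. The same pair gave r = 0.49 in E18.5 midbrain (permutation p = 0.113, adjusted p = 0.417) and r = 0.18 in cortex (exact permutation p = 0.738, adjusted p = 0.882), with rho of 0.56 and 0.14 (adjusted permutation p = 0.437 and 0.888). Same-numbered libraries deviated together, and these tests treat them as independent, so their p-values may be too small. Over the 6 pair differences at E18.5 r of Chat with Slc18a3 was 0.0086 (exact permutation p = 0.983, adjusted p = 0.983) and rho was 0.43 (exact permutation p = 0.419, adjusted p = 0.815). The 4 pair differences of each P21 tissue are too few for a correlation.

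Both libraries numbered 3 had the lowest Hox sums of P21 midbrain (6.09 and 5.63 TPM). Chat in them was at 7.09 TPM in Nova1 hu/hu, where library 1 was lower at 6.83 TPM. In Nova1 wt/wt it was at 5.38 TPM, the lowest of that group. At E18.5 both libraries numbered 2 had the highest Hox sums (27.4 and 27.2 TPM). The part of the dissection in these values was not tested, and without these 4 libraries the counts of called genes were again 10 with age, 10 between regions and 0 between genotypes in each midbrain comparison. Chrna4 and Chrnb2 gave r = 0.82 in P21 midbrain (exact permutation p = 0.0399, adjusted p = 0.220), rho = 0.79 (exact permutation p = 0.0694, adjusted p = 0.437) and r = 0.84 without the 2 farthest libraries. For Chrna6 and Chrnb3, which rose alike with age, r was 0.44 at E18.5, 0.25 in P21 midbrain and 0.09 in cortex, and rho was 0.44, 0.29 and -0.12, with adjusted permutation p of 0.530, 0.817 and 0.882 for r and 0.494, 0.795 and 0.888 for rho.

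The genes most like each of the 10 were found by Pearson's r of log2 CPM, centred on each of the 6 groups, over 28 libraries and 16805 genes, as a description without a test. Among those most like Ache were Eml2 and Matk (r = 0.94 each), and among those most like Slc18a3 were Cntn2 (r = 0.89) and Tmem8 (r = 0.81). Chrna4 was most like Hs6st1 (r = 0.86), L1cam (r = 0.81) and Dnmt3a (r = 0.79), and Chat like Med1 (r = 0.80), Gm6792 (r = 0.71) and Myom3 (r = 0.69). For the other 6 the highest r was between 0.69 and 0.74, with Zfp326 for Slc5a7, Strbp for Chrna3, Tbl1x for Chrna5, Adarb2 for Chrna6, Syt9 for Chrnb2 and Epm2a for Chrnb3. None of the 10 genes was among the 3 most like any other of them.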

How the data were processed

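RNA was extracted with Trizol, polyA-selected TruSeq libraries were sequenced, and the authors aligned reads to mm10 with OLego and summarised them per gene with Quantas. The deposited files give, per gene, expected counts (whole for nearly all genes, rounded here) and an RPKM that the authors computed from them. TPM was computed here from the deposited expected counts and exon lengths and RPKM was not used in a test. Strandedness of the counting and the annotation version are not given in the sources used here. Listed genes held under older symbols (3) were matched by Entrez identifier, and 1 listed gene, Gpr6, was not found.

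The genes and lists were chosen with earlier results of these data known. Tests used edgeR 4.0.16 (quasi-likelihood, TMM, filterByExpr, R 4.3.3) with Benjamini-Hochberg adjustment, within each tissue for genotype and in 1 fit of all 28 libraries for age, region and interactions. Calls needed p under 0.05 and adjusted p under 0.1. Single genes were also compared by two-sided exact permutation tests, pairs by permutation within genotype (100000 resamples, exact for 8 libraries) where the median count of each gene was at least 10. Spearman p-values come from the same permutations. Named genes were the 10 in every comparison, for age and region at most 3 per direction and list by the size of the log2 fold change among those called, and the 3 of most like pattern. Any other gene named was chosen after its values were seen. A few genes that the rule would name are not reported here. DESeq2 1.42.0, other scalings, filters, each library left out and the replicate block were alternatives. The edgeR code was tested on simulated data.

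Same-numbered libraries of the genotypes deviated together (at E18.5 r was 0.171 to 0.391 against a median of -0.073 for other pairs, at P21 0.201 to 0.235 against -0.094 in midbrain and 0.170 to 0.246 against -0.109 in cortex), so the numbers pair libraries. No pair of libraries of the same age, region and genotype agreed within sampling noise (lowest chi-square per degree of freedom 4.65). Pairs from different groups were not compared in this way. Labels give each library as a separate sample, and the paper calls the samples of its molecular experiments biological replicates. It also states equal numbers of male-female pairs for its transcriptome data, and sex did not enter the tests here. Where separate animals are not stated, p-values measure only the spread between samples. Promoter stretches, symbols and coordinates come from RefSeq (GRCm38.p6). RefSeq entries matched 22959 of 23038 identifiers.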

Additional observations from a re-analysis of the deposited data

Results flagged for a closer look

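Of 60 combinations of gene, tissue and genotype examined for a library far from the others, 2 stood out by Dixon's ratio in groups of 4, where chance gives about 1 in 20. Chrna3 in the Nova1 hu/hu cortex library 1 was at 1.26 TPM against 0.817 to 0.873 TPM in the other 3 (ratio 0.874). Without it the genotype difference of Chrna3 in cortex went from 0.03 to -0.14 on the log2 scale and was not called with or without it. Chrnb2 in the Nova1 wt/wt cortex library 2 was at 25.8 TPM against 25.0 to 25.2 TPM in the other 3 (ratio 0.844). No genotype difference of the 10 genes was called to differ between ages or regions (0 of 10 in each test), and all deposited gene tables were used in the comparisons.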

How the results depend on the processing

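The counts of called genes stayed within 1.5 times of the reported ones under all 195 alternatives run, and no called gene changed sign under any. With at least 10 counts required in every library, 9 of 9 tested genes were called with age and with region, since Chrna6 left the test. With a 2-fold minimum 8 were called in each, and in Nova1 hu/hu libraries alone 9 were called between regions, without Chrna5. With the replicate block 0 of the 10 genes were called between genotypes in each tissue and in both tests of a difference between genotype effects, and 10 between regions. Deviations of same-numbered P21 midbrain and cortex libraries of the same genotype were negatively correlated, with r from -0.201 to -0.102. Other pairs of these libraries had a median r of 0.092. The cause was not tested. Over the 6 E18.5 pair differences 0 of the 13 gene pairs passed. Of 1127 values of single genes under alternatives 35 changed sign, all between genotypes and uncalled, of which 30 came from leaving out 1 library. The ranges (log2) with each library left out in turn were, in E18.5 midbrain, -0.16 to 0.037 for Chat, -0.23 to 0.072 for Slc18a3, -0.067 to 0.014 for Chrna3, -0.031 to 0.052 for Chrna5 and -0.13 to 0.10 for Chrnb3. In P21 midbrain they were -0.040 to 0.0055 for Ache, -0.10 to 0.12 for Chat, -0.074 to 0.15 for Slc18a3, -0.017 to 0.082 for Chrna4 and -0.038 to 0.062 for Chrna6, and in cortex -0.14 to 0.13 for Chrna3, -0.00084 to 0.027 for Chrnb2 and -0.31 to 0.00080 for Chrnb3. By library size alone Chrna6 and Chat were at -0.0076 and -0.0095 in P21 midbrain. Without the 4 libraries of outlying Hox sums, chosen after seeing the data, Chat and Chrnb3 were at 0.019 and 0.0034 at E18.5 and Chat at -0.093 in P21 midbrain. The cause of these changes was not tested. The counts were lowest for Chrna6 in cortex (8 to 15), Chat at E18.5 (20 to 58) and Chrna5 in P21 midbrain (20 to 61), and the part of depth in the width of the intervals was not tested.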
